A study of Arabidopsis thaliana with 36 samples.

Results

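A set of 79 genes had higher transcript levels in the roots of both the hy5 and the phyAB mutants than in Col-0 roots, at both 21 °C and 27 °C. They were chosen from 16856 genes with a mean of at least 3 CPM (counted reads per 1000000) over the 18 root libraries, of 32833 genes in the files. For each gene, 4 log2 ratios were taken, hy5 over Col-0 and phyAB over Col-0 at each temperature, as log2 of (mean CPM + 1) in the mutant over (mean CPM + 1) in Col-0. Genes were ranked by the lowest of the 4 ratios, the top 80 ranks were kept, and of 2 loci excluded in advance 1 stood among them. These 4 contrasts therefore chose the genes, and their values are given below as a description, with no test.

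The seedlings were Arabidopsis thaliana of the accession Col-0, a hy5 mutant in which the light signalling gene HY5 is affected, and a phyAB mutant of phytochromes A and B. Roots and shoots were taken apart 6 days after germination from plants at 21 °C or 27 °C by day, with nights at 15 °C or 21 °C and a day of 16 h light and 8 h dark, and each of the 12 groups had 3 libraries. All groups had 3 days at 21 °C after germination, and the time spent at 27 °C is given both as 4 h and as 3 days, so its length is not known here. No source used here gives the mutant alleles. The labels do not say whether replicates came from separate cultures, so the p-values measure the spread between these samples, which may be technical.

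HY5 is a bZIP transcription factor that accumulates in light and binds promoters at G-box and related motifs, and phytochromes A and B are receptors upstream of it that sense red and far-red light. HY5 is known to act in roots as well as in shoots, where it promotes flavonoid genes and takes part in nutrient uptake. Several of the genes described here belong to the root's machinery for moving ions to the shoot: SKOR releases potassium into the xylem, SLAH1 and SLAH3 are anion channels, and HMA2 exports zinc towards the xylem.

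Root libraries held 14810514 to 24006279 reads in genes and shoot libraries 17008543 to 23880472. HY5 stood at 44.0 to 52.8 CPM in the 6 Col-0 roots, at 11.1 to 14.2 CPM in hy5 roots and at 18.04 to 26.7 CPM in phyAB roots, so it was below Col-0 in the roots of both mutants. In phyAB roots, PHYA was at 14.5 to 22.6 CPM against 132 to 189.8 CPM in Col-0, and PHYB at 32.7 to 43.1 against 89.7 to 115.6 CPM. In shoots, PHYA was at 18.3 to 47.9 CPM in phyAB against 64.4 to 142.8 CPM in Col-0. The transcript levels of HY5, at 5.56 to 9.80 CPM in Col-0 shoots, 5.21 to 7.76 in hy5 and 7.59 to 12.7 in phyAB, and of PHYB, at 62.5 to 83.2 CPM in Col-0 and 62.1 to 68.3 in phyAB, overlapped, so in shoots the HY5 level does not check the hy5 label. The 11 root markers other than PYK10 summed to 697 to 846 CPM in the roots of all genotypes. With PYK10 the sum was 9905 to 13982 CPM in Col-0, 9141 to 12967 in hy5 and 7472 to 8817 in phyAB roots. By that sum phyAB lay below the other genotypes. The 11 photosynthesis transcripts summed to 293 to 837 CPM in Col-0, 46.6 to 191 CPM in hy5 and 127 to 499.95 CPM in phyAB roots. In shoots they summed to at least 77716 CPM. The part of these shoot transcripts in the results was not tested. In both phyAB root groups, replicate 3 has a title and tissue that say root but a source name that says shoot, and it was used as root. At 21 °C and 27 °C its root markers other than PYK10 summed to 821 and 840 CPM, against at most 132 CPM in shoots. Its photosynthesis transcripts summed to 127 and 228 CPM, so by these transcripts it had the levels of a root. Without these libraries, 75 of the 79 genes met the rule again, and the log2 ratio of phyAB over Col-0 moved by 0.40 at most at 21 °C, in UMAMIT36, and by 0.21 at most at 27 °C, in AT4G08555.

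Across the 79 genes the log2 ratio had a median of 1.64 for hy5 at 21 °C and 1.51 at 27 °C, and of 1.5 and 1.44 for phyAB. Over all 16856 genes these medians were -0.01, -0.01, 0.04 and 0.01. The lowest of the 4 ratios ran from 0.97 to 5.22, with a median of 1.23, and 7 genes had one of at least 2. At the edge, AT5G14120 at 0.98 and HMA2 at 0.97 were inside, and AT1G03660 and AT5G46090, both at 0.97, were outside. Separation of libraries, which partly follows from the rule, held in each of the 4 contrasts for 79 of 79 genes, where 20.9% and 22.0% of all genes separated that way for hy5 at 21 °C and 27 °C, and 27.4% and 25.7% for phyAB. In 67 genes all 12 mutant root libraries lay above all 6 Col-0 root libraries, against 2.88% of all genes. In bulk tissue, a lower level from fewer cells of a type and one from less RNA per cell cannot be told apart.

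**Figure D1:**
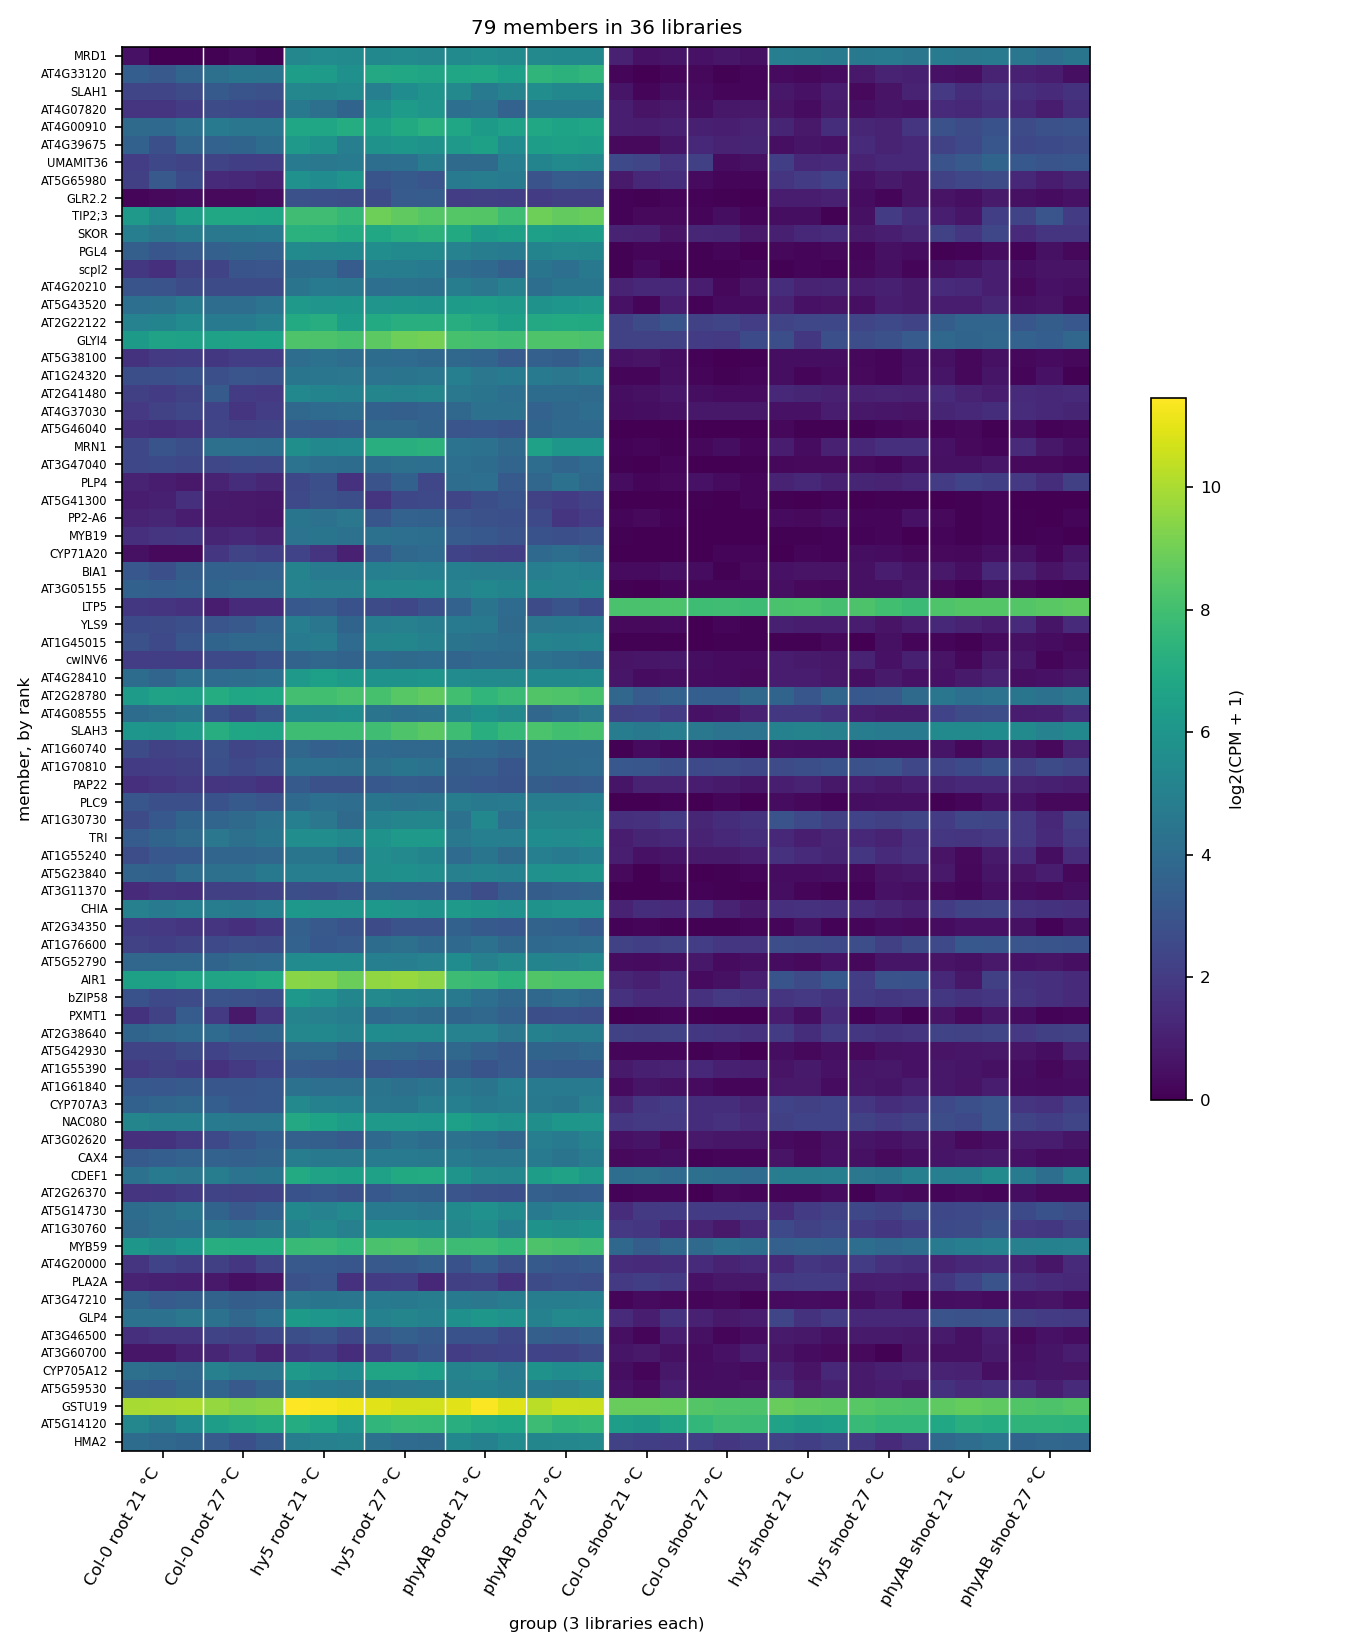
Level of each of the 79 genes, in rank order from the top, in each of the 36 libraries, as log2(CPM + 1) by colour. Columns are groups of 3 libraries, with roots left of the wide line and shoots right of it. In roots the hy5 and phyAB columns are lighter than the Col-0 columns, and in shoots most rows are dark, with LTP5, GSTU19 and AT5G14120 as bright exceptions.

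The genes lie on all 5 chromosomes, 19 on chromosome 1, 10 on 2, 11 on 3, 15 on 4 and 24 on 5. Their mean over the 18 roots ran from 3.01 to 1622 CPM, with a median of 21.0, and 18 were below 10 CPM. In Col-0 at 21 °C, 74 had a higher mean in roots than in shoots, and all 3 root libraries lay above all 3 shoot libraries in 71, which is 89.9% of the 79 against 77.3% of all genes. The log2 ratio of root over shoot had a median of 2.04 against 0.82 over all genes. In 49 of the 79, the Col-0 shoot mean was under 1 CPM. Sorted by their annotated products after their values were known, 15 encode transport proteins or channels, 15 enzymes of specialised metabolism and hormone turnover, and 16 enzymes of lipids, walls and sugars or lipid-binding proteins. A further 13 are linked to defence, redox or detoxification, 4 are transcription regulators, 4 are Cys/His-rich C1 domain proteins and 12 have other or unknown roles.

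The first gene by rank, MRD1 (AT1G53480, chromosome 1, 19963047 to 19964712, minus strand of TAIR10.1), is annotated as mto 1 responding down 1, and its function is not well known. In Col-0 roots its 3 libraries at 21 °C read 0.493, 0 and 0 CPM, and those at 27 °C 0.0427, 0.188 and 0.0428 CPM. In hy5 roots it read 38.4, 45.5 and 43.2 CPM at 21 °C and 39.5, 43.3 and 39.1 CPM at 27 °C. In phyAB roots it read 41.8, 47.4 and 42.5 CPM, and 41.4, 40.3 and 40.4 CPM. It was thus close to absent in the 6 Col-0 root libraries and at nearly 1 level in the 12 mutant ones, with 4 log2 ratios from 5.22 to 5.27, while the second gene by rank, AT4G33120, reached 2.45 as its lowest ratio.

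The transport genes open with SLAH1 (AT1G62280, chromosome 1, 23007044 to 23008610), an anion channel that partners SLAH3 in loading chloride into the xylem. It read 4.19 to 8.42 CPM in Col-0 roots, with a median of 5.68. In hy5 roots it read 30.2 to 60.01 CPM, with a median of 41.0, and in phyAB roots 26.4 to 48.6, with a median of 39.5. Every mutant root library stood more than 3 times above the highest Col-0 one. SLAH3 (AT5G24030, chromosome 5, 8118317 to 8122914), a channel for nitrate and chloride, had 63.6, 59.7 and 78.2 CPM in Col-0 roots at 21 °C and 142, 109 and 101 CPM at 27 °C. In hy5 roots it had 238, 240.2 and 236 CPM at 21 °C and 244, 315 and 366 CPM at 27 °C, and in phyAB roots 237, 147 and 198 CPM, and 295, 258 and 280.5 CPM. Neither mutant overlapped Col-0 within a temperature, while the mutants overlapped each other. The lowest phyAB library, at 147 CPM, was close to the highest Col-0 library, at 142 CPM.

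SKOR (AT3G02850, chromosome 3, 619678 to 623739), the outward potassium channel of the stele, had 28.96, 22.5 and 28.05 CPM in Col-0 roots at 21 °C and 23.03, 23.9 and 25.1 CPM at 27 °C. It had 158, 153 and 134 CPM, and 114, 142 and 165 CPM, in hy5 roots. In phyAB roots it had 123, 80.6 and 91.4 CPM, and 87.5, 77.9 and 82.7 CPM. The mean CPM was 5.59 and 5.84 times that of Col-0 in hy5 and 3.71 and 3.44 times in phyAB, at 21 °C and 27 °C. AT4G00910, of the aluminium-activated malate transporter family, ran over 14.2 to 25.5 CPM in Col-0, 89.97 to 155 in hy5 and 75.7 to 111.6 in phyAB roots. TIP2;3, a tonoplast aquaporin that also passes ammonium, ran over 45.4 to 116 CPM, 199.8 to 488 CPM and 242 to 488 CPM. UMAMIT36, of a family that exports amino acids, ran over 3.21 to 4.67 CPM, 16.7 to 27.4 CPM and 14.5 to 42.2 CPM. In these 3 genes, too, no mutant root library came down to the Col-0 range.

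GLR2.2, a glutamate receptor-like channel, was near 0 in Col-0 roots, at 0.148 to 0.343 CPM. It was at 5.14 to 9.17 CPM in hy5 and 3.15 to 3.54 CPM in phyAB roots, so the 3 genotypes did not overlap. HMA2 (AT4G30110, chromosome 4, 14720062 to 14725311) had a mean ratio of 1.83 in phyAB and of 1.04 in hy5. It had 15.4, 13.6 and 12.03 CPM in Col-0 roots at 21 °C and 8.67, 5.89 and 8.48 CPM at 27 °C. In hy5 roots it had 28.3, 30.5 and 33.5 CPM, then 18.1, 15.2 and 14.8 CPM, the last 2 of them below the highest Col-0 library at 21 °C. In phyAB roots it had 40.4, 31.9 and 45.9 CPM, then 37.1, 38.9 and 41.1 CPM. AT5G65980, of the auxin efflux carrier family, depended strongly on temperature and is described with the temperature response.

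**Figure D2:**
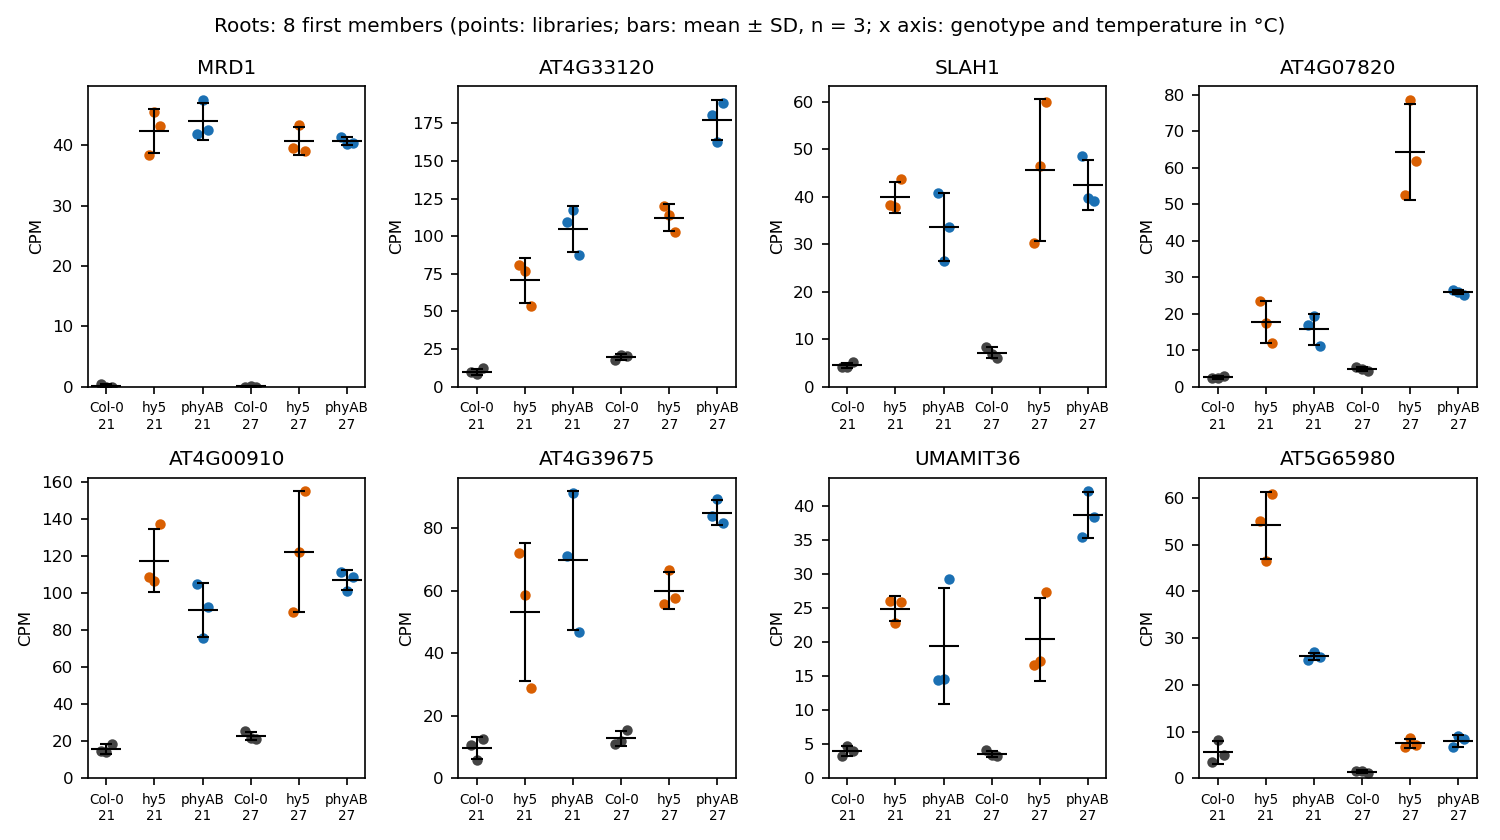
CPM (vertical axes, from 0) of the 8 genes first by rank in the root libraries of each genotype at 21 °C and 27 °C. Points are libraries and bars are mean ± SD with n = 3. MRD1 lies near 40 CPM in both mutants and near 0 in Col-0, and AT5G65980 is lower at 27 °C than at 21 °C in each genotype.

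Among enzymes of specialised metabolism, MRN1 (AT5G42600, chromosome 5, 17053453 to 17058245) encodes marneral synthase, which makes the triterpene marneral, and CYP705A12 (AT5G42580, chromosome 5, 17023502 to 17025361) is a cytochrome P450 with 1 coding gene between it and MRN1. MRN1 had 4.69, 6.87 and 5.68 CPM in Col-0 roots at 21 °C and 18.03, 17.3 and 16.9 CPM at 27 °C. In hy5 roots it had 51.6, 39.5 and 43.6 CPM, then 148, 152 and 164 CPM, and in phyAB roots 19.7, 18.6 and 14.4 CPM, then 93.2, 66.00 and 64.2 CPM. It thus rose with temperature in each genotype, and within a temperature the order was Col-0, phyAB, hy5 without overlap. CYP705A12 followed the same order within each temperature, with 13.8 to 30.4 CPM in Col-0, 24.4 to 56.8 in phyAB and 45.99 to 104 in hy5 over both temperatures. AT4G33120, a methyltransferase of the S-adenosylmethionine-dependent family, ran over 8.33 to 21.2 CPM in Col-0, 53.7 to 120.2 in hy5 and 87.8 to 189 in phyAB. BIA1, an acyltransferase that lowers brassinosteroid levels, ran over 5.87 to 11.1 CPM, 24.7 to 33.9 CPM and 26.8 to 32.8 CPM, with the mutants overlapping each other and not Col-0.

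CYP707A3 (AT5G45340, chromosome 5, 18368532 to 18371021), which breaks down abscisic acid by 8'-hydroxylation, was the 1 gene of the 79 that also stood in the pathway lists used here. It had 10.8, 12.2 and 13.6 CPM in Col-0 roots at 21 °C and 9.78, 7.63 and 8.05 CPM at 27 °C. In hy5 roots it had 40.8, 32.3 and 29.5 CPM, then 21.3, 21.03 and 27.4 CPM, and in phyAB roots 29.5, 23.97 and 26.9 CPM, then 23.6, 20.97 and 30.5 CPM. All 12 mutant libraries lay above the 6 of Col-0. Of 10 other measured genes of the abscisic acid and dehydration list, 0 were higher and 5 lower in hy5 roots at 21 °C, 1 and 5 at 27 °C, 2 and 4 in phyAB roots at 21 °C, and 3 and 3 at 27 °C (edgeR, adjusted p under 0.05). In the same 4 contrasts, 3407, 3265, 3508 and 2964 of all 20355 genes tested were higher, and 3746, 3532, 3653 and 3373 lower.

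Other lists that touch the roles above moved in several ways in the same contrasts, in the order hy5 at 21 °C and 27 °C and phyAB at 21 °C and 27 °C. Of 11 nitrate genes, 7, 5, 3 and 6 were higher and 3, 3, 2 and 1 lower. Of 19 genes of salicylic acid and pipecolate immunity, 9, 7, 8 and 8 were higher and 3, 4, 3 and 4 lower. Of 13 suberin genes, 0 were higher in any of the 4 and 9, 8, 8 and 7 lower, and of 6 flavonoid genes all 6 were lower in each, with list medians from -5.04 to -5.93 on the log2 scale. None of the 79 genes is in these 4 lists, and a list's counts do not compare it with other genes.

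Enzymes and binding proteins of lipids, walls and sugars included AIR1, a small proline-rich protein named for its induction by auxin in root cultures. AIR1 ran over 91.3 to 128 CPM in Col-0 roots, with a median of 104.5, over 475 to 819.5 CPM in hy5, with a median of 689, and over 172 to 326 CPM in phyAB, with a median of 263. CDEF1, a cutinase, ran over 19.2 to 27.3 CPM in Col-0, 91.9 to 129 in hy5 and 38.9 to 96.6 in phyAB, and lies 2 coding genes from HMA2 on chromosome 4. PLP4, a patatin-like lipase, had 0.728 to 1.84 CPM in Col-0, 2.09 to 10.6 in hy5 and 8.37 to 18.4 in phyAB, so both mutants were above Col-0 and overlapped each other. PGL4, a 6-phosphogluconolactonase, ran over 7.498 to 12.01 CPM, 38.1 to 48.1 CPM and 26.5 to 38.01 CPM, and AT1G24320, a six-hairpin glycosidase, over 5.72 to 7.21 CPM, 19.8 to 22.1 CPM and 22.5 to 29.7 CPM, in Col-0, hy5 and phyAB roots. For PGL4 hy5 lay above phyAB in every library, and for AT1G24320 below it.

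Genes linked to defence, redox and detoxification included the highest reading of the set, GSTU19, a glutathione transferase of the tau class. It ran over 661 to 1059 CPM in Col-0 roots, 1652 to 2824 CPM in hy5 and 1256 to 2662 CPM in phyAB. GLYI4, a glyoxalase I that removes methylglyoxal, ran over 75.2 to 98.04 CPM, 278 to 542 CPM and 249.6 to 316 CPM. CHIA, an acidic chitinase, had nearly the same ratio in each contrast, with mean CPM 2.21 and 2.24 times Col-0 in hy5 and 2.22 times in phyAB at both temperatures. YLS9, a marker of the hypersensitive response, ran over 4.93 to 11.3 CPM in Col-0, 11.9 to 30.5 in hy5 and 14.4 to 26.7 in phyAB, where the lowest hy5 library was just above the highest Col-0 one. AT4G07820, of the family of pathogenesis-related protein 1, ran over 2.37 to 5.34 CPM, 12.1 to 78.6 CPM and 11.1 to 26.6 CPM. AT2G41480, a peroxidase, ran over 2.74 to 8.42 CPM, 31.9 to 39.5 CPM and 14.4 to 23.1 CPM, and hy5 was above phyAB in every library. Reads with no unique alignment were tallied apart from the reads in genes. The values of genes with near-identical copies, as in the glutathione transferases, leave such reads out and are less certain.

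The 4 transcription regulators were the R2R3-MYB factors MYB19 and MYB59, the bZIP factor bZIP58 and the NAC factor NAC080. MYB19 ran over 1.11 to 2.57 CPM in Col-0 roots, 16.5 to 21.3 in hy5 and 6.03 to 8.65 in phyAB. Expression of bZIP58 ran over 4.83 to 6.75 CPM, 31.4 to 67.2 CPM and 13.4 to 23.7 CPM. For both, hy5 lay above phyAB and phyAB above Col-0 with no overlap. MYB59 had 66.2, 51.4 and 64.7 CPM in Col-0 roots at 21 °C and 141, 135 and 135 CPM at 27 °C, while both mutants stood at 191 to 318 CPM. NAC080 ran over 23.1 to 36.2 CPM in Col-0, 67.7 to 119 in hy5 and 51.4 to 88.3 in phyAB. The 4 Cys/His-rich C1 domain proteins, AT5G43520, AT3G11370, AT1G55390 and AT1G61840, had lowest ratios of 1.08 to 1.60.

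The others of the first 20 by rank separated the mutants from Col-0 as well. AT4G39675, an uncharacterised gene, spanned 5.92 to 15.6 CPM in Col-0, 28.96 to 72.1 in hy5 and 46.9 to 91.2 in phyAB. The serine carboxypeptidase-like gene scpl2 spanned 1.96 to 7.07 CPM in Col-0, 8.98 to 28.2 in hy5 and 10.3 to 23.8 in phyAB. AT4G20210, of the terpenoid cyclase family, spanned 5.09 to 6.96 CPM in Col-0, 16.98 to 24.6 in hy5 and 16.7 to 31.1 in phyAB. The mutants overlapped each other in each of these 3. AT5G43520, the first C1 domain protein by rank, spanned 15.9 to 26.6 CPM in Col-0, 59.5 to 69.7 in hy5 and 56.3 to 85.1 in phyAB. AT2G22122, uncharacterised, spanned 24.7 to 45.8 CPM in Col-0, 83.01 to 151 in hy5 and 89.8 to 139 in phyAB, and AT5G38100, a methyltransferase of the family of AT4G33120, 2.17 to 3.30 CPM in Col-0, 13.3 to 18.9 in hy5 and 8.78 to 13.9 in phyAB. They overlapped in the last 3 as well, and no mutant root library of the 6 genes lay inside the Col-0 range.

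In some of the genes the ratios of the 2 mutants were unlike each other. Both ratios share the Col-0 libraries, and no test is given. Averaged over the temperatures, the ratio was larger in hy5 for 42 genes and in phyAB for 37. In 11 genes the 6 hy5 root libraries lay above the 6 phyAB ones and in 2 the reverse held, against 2.32% and 5.12% of all genes. The mean ratios differed by over 1 in 7 genes, and hy5 was higher in 6 of them. These were bZIP58 with 2.69 against 1.31, AIR1 with 2.68 against 1.26, PP2-A6, a phloem protein, with 3.00 against 1.60, MYB19 with 2.83 against 1.55, PXMT1, a methyltransferase, with 2.41 against 1.14, and MRN1 with 2.92 against 1.75. PLP4 was the 1 gene with phyAB higher, at 2.83 against 1.59.

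**Figure D3:**
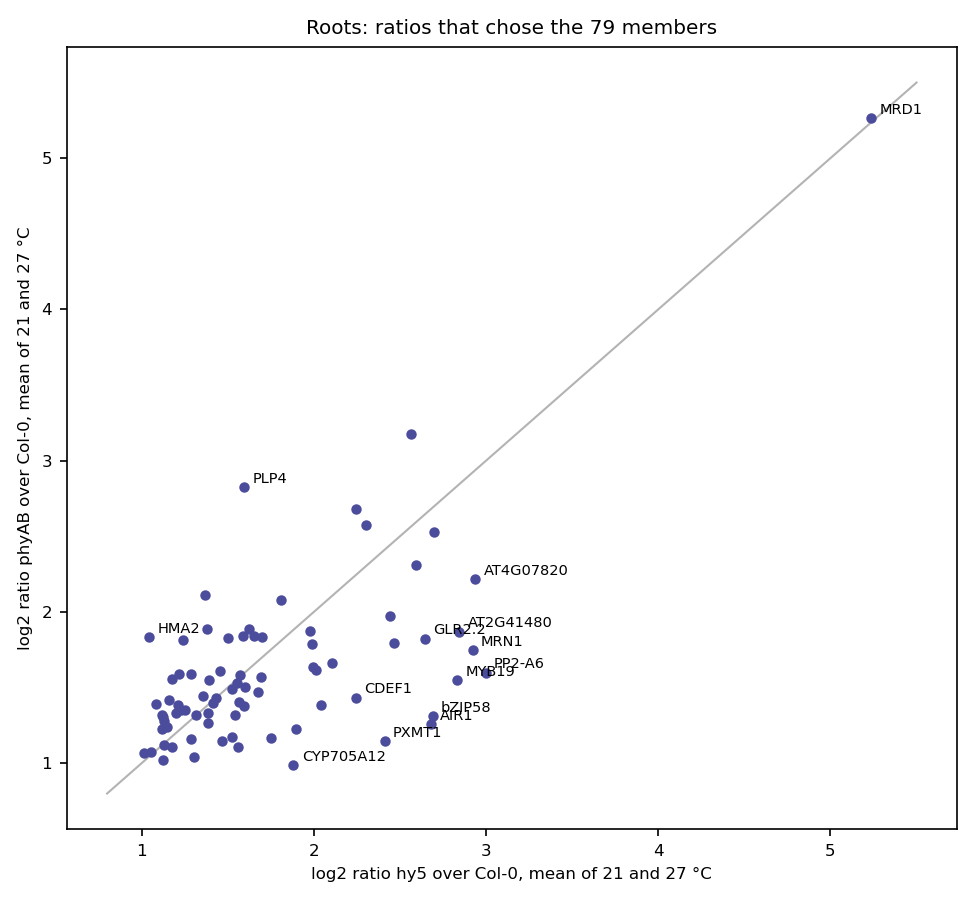
Log2 ratio of hy5 over Col-0 (horizontal axis) and of phyAB over Col-0 (vertical axis) in roots, each the mean of 21 °C and 27 °C, with 1 point a gene and equal ratios on the grey line. Both ratios share the Col-0 libraries and chose the genes, so the plot is a description. MRD1 stands at the top right on the line, AIR1, bZIP58 and MRN1 lie on the hy5 side and PLP4 and HMA2 on the phyAB side.

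The promoters of the 79 genes were read for motifs bound by light and stress factors in the 250 bases before the annotated start, on both strands, from the RefSeq annotation of TAIR10.1. The G-box CACGTG, which HY5 binds in vitro, was in 7.59% of them, in 6 genes, and in 7.38% of the 16852 promoters of the genes ranked. Its core ACGTG was in 22.8% against 23.8%. The W-box forms TTGACC or TTGACT were in 36.7% against 28.4%, the sugar-linked GGATAA or TATCCA in 11.4% against 20.5%, AACGTG in 6.33% against 7.57% and GAGAC in 22.8% against 24.8%. ACGTG lies within CACGTG, so these counts overlap, and a match is not shown to be a bound site. Of the 6 genes with CACGTG, the transport gene SLAH1 (chr1:23008611-23008860, minus strand), the regulator MYB19 (chr5:21219781-21220030, plus strand) and CYP707A3 (chr5:18371022-18371271, minus strand) are shown because they stand for 3 roles, beside MRD1 (chr1:19964713-19964962, minus strand), the gene with the largest ratios. Sequences run 5′ to 3′ and capitals mark CACGTG, which begins 57, 179 and 113 bases before the start of SLAH1, MYB19 and CYP707A3, and no ACGTG is in the window of MRD1.
SLAH1: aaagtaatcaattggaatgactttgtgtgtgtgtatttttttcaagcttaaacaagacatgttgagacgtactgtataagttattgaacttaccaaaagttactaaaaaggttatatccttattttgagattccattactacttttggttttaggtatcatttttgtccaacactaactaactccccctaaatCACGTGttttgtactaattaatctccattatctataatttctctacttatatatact
MYB19: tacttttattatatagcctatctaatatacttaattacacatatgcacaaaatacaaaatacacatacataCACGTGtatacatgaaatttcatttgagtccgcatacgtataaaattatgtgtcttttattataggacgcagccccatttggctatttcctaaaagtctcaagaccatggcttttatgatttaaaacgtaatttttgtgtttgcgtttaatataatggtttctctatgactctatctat
CYP707A3: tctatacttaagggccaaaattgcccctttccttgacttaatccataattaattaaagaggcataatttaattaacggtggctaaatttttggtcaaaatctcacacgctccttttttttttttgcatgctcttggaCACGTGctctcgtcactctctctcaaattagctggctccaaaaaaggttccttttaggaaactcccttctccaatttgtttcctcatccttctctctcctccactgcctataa
MRD1: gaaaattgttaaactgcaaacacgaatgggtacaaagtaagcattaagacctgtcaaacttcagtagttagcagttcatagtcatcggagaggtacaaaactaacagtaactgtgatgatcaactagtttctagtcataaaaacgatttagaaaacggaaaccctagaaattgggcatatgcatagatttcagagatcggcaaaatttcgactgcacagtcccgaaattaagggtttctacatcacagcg

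The response of the genes to warmth in roots was not used by the rule, although it rests on the same root libraries. At 27 °C against 21 °C, 27 of the 79 rose and 14 fell in Col-0 roots, 24 rose and 19 fell in hy5, and 26 rose and 12 fell in phyAB (edgeR quasi-likelihood test, adjusted p under 0.05 over 20355 genes). Over all genes 21.7% rose and 21.8% fell in Col-0, 25.7% and 23.9% in hy5, and 19.2% and 19.2% in phyAB. The median log2 change of the 79 was 0.09, 0.09 and 0.10, against values within 0.02 of 0 for all genes. In the phyAB fit, 18 rose and 13 fell without the 2 libraries whose labels conflict.

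Of the 79, 18 rose in the roots of all 3 genotypes, 9 fell in all 3, 23 passed in none, and no gene rose in 1 genotype and fell in another. Over the 20355 genes tested, 13.2% rose in all 3, 13.8% fell in all 3, 38.1% passed in none and 0.305% moved in opposite directions. The 18 became 13 without phyAB replicate 3 at 21 °C, one of the libraries with conflicting labels, and the 9 became 6 without Col-0 replicate 1 at 21 °C. MRN1 rose by a log2 change of 1.51 ± 0.17 (SE) in Col-0, 1.71 ± 0.13 in hy5, then 2.04 ± 0.15 in phyAB (edgeR adjusted p = 1.71e-06, 1.7e-08 and 2.22e-08). Its neighbour CYP705A12 rose by 0.61 ± 0.18, 0.65 ± 0.16 and 0.62 ± 0.17, where the Col-0 call was lost without Col-0 replicate 1 at 27 °C. CYP71A20, a cytochrome P450, had 0.444, 0.208 and 0.243 CPM in Col-0 roots at 21 °C and 2.48, 4.05 and 3.43 CPM at 27 °C. In hy5 it had 3.89, 2.28 and 1.05 CPM, then 7.92, 13.4 and 15.3 CPM, and in phyAB 3.91, 3.47 and 3.17 CPM, then 14.3, 16.9 and 12.9 CPM. The temperatures did not overlap in any genotype, and its log2 change was 3.39 ± 0.49 in Col-0, 2.22 ± 0.29 in hy5, then 2.02 ± 0.28 in phyAB (edgeR adjusted p = 2.17e-05, 5.39e-06 and 2.21e-05).

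Others that rose in each genotype were TIP2;3, by 0.68 ± 0.18, 0.78 ± 0.17 and 0.50 ± 0.17, MYB59, by 1.1 ± 0.11, 0.41 ± 0.10 and 0.28 ± 0.10, and AT4G33120, by 0.90 ± 0.17, 0.59 ± 0.14 and 0.72 ± 0.14, in Col-0, hy5 and phyAB. AT3G02620, of the stearoyl-acyl-carrier-protein desaturase family, had 2.02, 2.17 and 2.81 CPM in Col-0 roots at 21 °C and 4.74, 7.26 and 9.59 CPM at 27 °C. Its log2 change of 1.55 ± 0.25 was among the largest rises of the 79 in Col-0 (edgeR adjusted p = 5.83e-05). AT4G07820 rose by 1.77 ± 0.19 in hy5 (edgeR adjusted p = 5.06e-07), and by 0.83 ± 0.29 in Col-0 and 0.66 ± 0.20 in phyAB. UMAMIT36 rose in phyAB roots by 0.96 ± 0.21 (edgeR adjusted p = 0.00157), with 14.5, 14.5 and 29.2 CPM at 21 °C against 35.4, 42.2 and 38.4 CPM at 27 °C. The high library at 21 °C is one of those whose labels conflict, and the change was 1.38 without both of them. Without both, the rises in phyAB of CYP705A12, TIP2;3, MYB59 and AT4G07820 were 0.47, 0.36, 0.29 and 0.49 and missed the threshold. The Col-0 call of AT4G07820 was lost without replicate 1 or 2 of either temperature.

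AT5G65980, of the auxin efflux carrier family, fell in all 3 genotypes. It had 3.50, 8.16 and 4.95 CPM in Col-0 roots at 21 °C and 1.67, 1.46 and 1.16 CPM at 27 °C, while hy5 had 54.99, 46.4 and 60.9 CPM, then 6.79, 8.62 and 7.12 CPM. In phyAB it had 25.4, 26.99 and 25.9 CPM, then 6.67, 9.13 and 8.41 CPM. The hy5 roots, highest at 21 °C, came down to the level of phyAB at 27 °C, and the log2 change was -2.05 ± 0.27 in Col-0, -2.92 ± 0.18 in hy5, then -1.74 ± 0.19 in phyAB (edgeR adjusted p = 8.89e-06, 1.56e-09 and 1.54e-06).

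AT4G08555, an uncharacterised gene, fell in each genotype too. It had 15.5, 17.8 and 19.99 CPM in Col-0 roots at 21 °C and 6.45, 4.66 and 6.64 CPM at 27 °C, and its log2 changes were -1.66 ± 0.18, -1.31 ± 0.16 and -1.43 ± 0.16, with Col-0 first, hy5 next and phyAB last (edgeR adjusted p = 1.21e-06, 1.98e-06 and 2.37e-06). GSTU19 fell by 0.58 ± 0.12, 0.63 ± 0.12 and 0.66 ± 0.12. PXMT1 fell by 1.43 ± 0.40 in Col-0 roots (edgeR adjusted p = 0.00794), where its libraries at 21 °C, with 2.17, 3.75 and 9.22 CPM, overlapped those at 27 °C, with 2.82, 0.707 and 2.27 CPM. Without the library at 9.22 CPM, replicate 3, the change of PXMT1 was -0.68 and missed the threshold. PP2-A6 fell by 1.14 ± 0.16 in hy5 roots (edgeR adjusted p = 1.34e-05), from 20.7, 18.2 and 22.5 CPM to 7.51, 11.03 and 10.8 CPM. LTP5, a lipid transfer protein, fell by 1.51 ± 0.20 in phyAB roots (edgeR adjusted p = 1.25e-05), from 11.03, 20.4 and 15.3 CPM to 5.09, 6.80 and 4.93 CPM. In the transport group, 7 of 15 rose and 2 fell in Col-0, 4 rose and 3 fell in hy5, and 6 rose and 1 fell in phyAB. Over all genes 21.7% rose and 21.8% fell in Col-0, 25.7% and 23.9% in hy5, and 19.2% and 19.2% in phyAB. The group was sorted after the values were known, and its counts were not tested. MYB19 fell in each genotype, by 0.95 ± 0.16, 0.24 ± 0.09 and 0.32 ± 0.11, while MYB59 rose in each. By DESeq2 the falls of MYB19 in hy5 and phyAB missed the threshold, with adjusted p of 0.0615 and 0.0665.

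**Figure D4:**
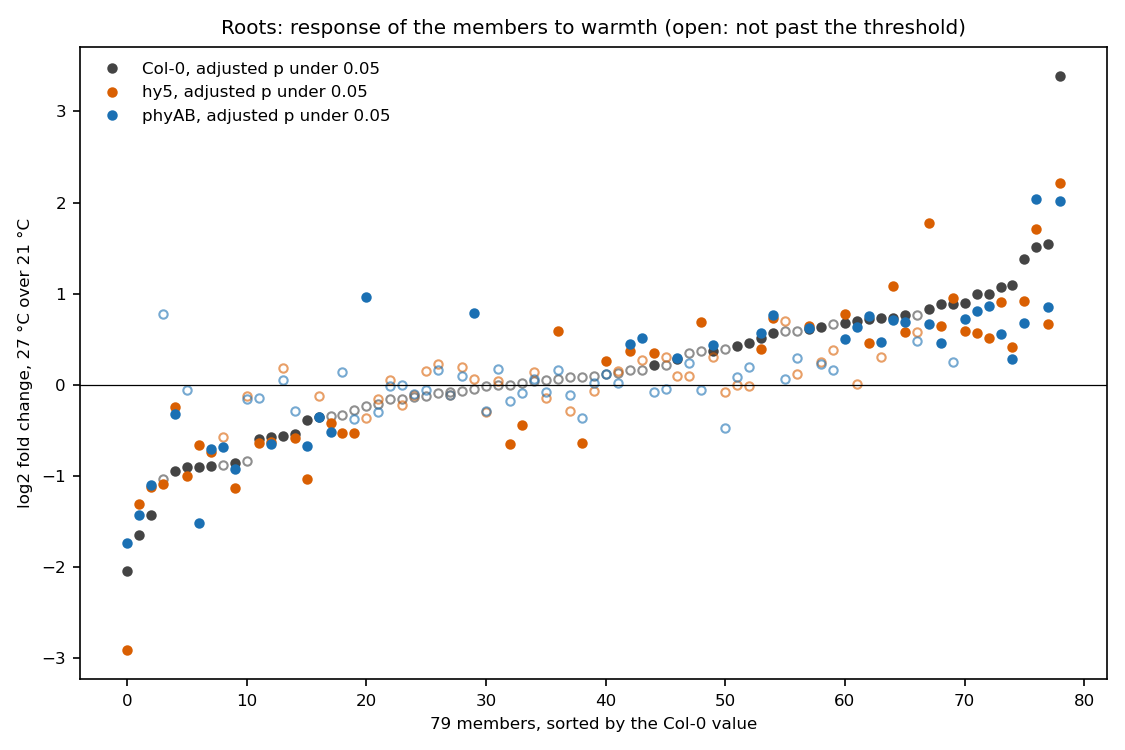
Log2 fold change at 27 °C over 21 °C in roots (vertical axis) for the 79 genes sorted by their Col-0 value (horizontal axis). Colours are genotypes and filled points have an edgeR adjusted p under 0.05. AT5G65980 is at the far left, at -2.05 in Col-0 and -2.92 in hy5, and CYP71A20 at the far right, at 3.39 in Col-0.

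Shoot libraries played no part in the rule and gave a separate reading of the mutants. The filter on low counts left 63 of the 79 genes in the shoot fit, and 16 were too low to test. Many of the 63 pass through the reads of a mutant, since 41 had at least 10 reads in at least 3 of the 6 Col-0 shoot libraries, so counts over those tested are not read as evidence about the whole set. In hy5 shoots 19 genes were higher than Col-0 and 1 lower at 21 °C, and 23 higher and 1 lower at 27 °C, where 8.99% and 6.18% of all 20100 genes tested were higher and 8.94% and 6.06% lower (edgeR, adjusted p under 0.05). In phyAB shoots 35 were higher and 3 lower at 21 °C, and 36 higher and 2 lower at 27 °C, where 18% and 18.8% of all genes were higher and 20.2% and 23.7% lower. Of the 41 genes with reads in Col-0 shoots, 12 and 11 were higher in hy5 and 23 and 21 in phyAB. Leaving out the Col-0 library numbered 3 or 2 at 27 °C brought the 23 down to 12 or 13. Among shoots at 27 °C, library 3 of every genotype had a larger share of reads with no unique alignment than libraries 1 and 2. These shares were 34.6% (hy5), 28.8% (phyAB) and 27.8% (Col-0), against 9.02% to 10.2% for libraries 1 and 2. The part of this difference in the calls at 27 °C was not tested.

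Root marker and seed transcript levels were read in the same shoot libraries. The 11 root markers other than PYK10 had a sum of 73.6 to 81.7 CPM in the shoots of Col-0, of 77.97 to 85.96 CPM in those of hy5 and of 109.7 to 132 CPM in those of phyAB. With PYK10 the sum was 2808 to 3124 CPM in Col-0, 1731 to 2073 in hy5 and 2851 to 3753 in phyAB shoots. By that sum hy5 lay below Col-0, and phyAB overlapped Col-0. With PYK10 counted, 9 of 12 at 21 °C and 11 of 12 at 27 °C had a higher mean in phyAB shoots than in Col-0. In hy5 shoots 7 of 12 at 21 °C and 8 of 12 at 27 °C had a higher mean. Seed storage and oil body transcripts ran, as a sum over shoots, from 1.77 to 2.78 CPM for Col-0, from 3.998 to 11.5 for hy5 and from 208 to 2389 for phyAB, so the genotypes did not overlap. Of these 12 genes, 11 at 21 °C and 10 at 27 °C had a higher mean in hy5 shoots than in Col-0, and all 12 had one in phyAB at both temperatures. The part of root tissue or of seed RNA in the shoot values of either mutant was not tested.

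Of the genes tested, 10 were higher in both mutants' shoots at both temperatures, namely MRD1, GLR2.2, PLP4, YLS9, AT5G65980, AT2G41480, AT1G30760, NAC080, AT1G76600 and SLAH3, where 0.692% of all 20100 genes were. Of these 10, GLR2.2, YLS9, PLP4 and AT2G41480 had under 10 reads in most Col-0 shoot libraries. They passed the filter through the mutants, so they had to differ and only their levels are given. The count of 10 is therefore not read against the share of all genes. Of the 41 genes with reads in Col-0 shoots, 6 were higher in both mutants at both temperatures. Apart from that, the count of 10 became 6 without Col-0 replicate 2 or 3 at 27 °C. MRD1 had 1.05, 0.466 and 0.564 CPM in Col-0 shoots at 21 °C, then 0.487, 0.636 and 0.417 CPM at 27 °C. In hy5 shoots it had 28.5, 26.99 and 26.3 CPM, then 23.9, 24.9 and 21.8 CPM, and in phyAB shoots 26.5, 23.4 and 24.96 CPM, then 21.5, 17.3 and 20.9 CPM. In shoots, too, no mutant library came near the Col-0 range, with log2 changes of 5.27 ± 0.16 and 5.48 ± 0.17 in hy5 and 4.96 ± 0.16 and 5.10 ± 0.17 in phyAB (edgeR adjusted p = 1.3e-13, 2.14e-13, 4.94e-13 and 7.78e-13).

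SLAH3 was at 26.9, 24.1 and 28.5 CPM in Col-0 shoots at 21 °C, 32.2, 34.2 and 31.3 CPM in hy5 and 43.3, 43.8 and 46.6 CPM in phyAB. At 27 °C it was at 22.8, 19.4 and 19.9 CPM, 27.9, 24.3 and 24.3 CPM, and 42.03, 33.1 and 40.4 CPM. The order Col-0, hy5, phyAB held with no overlap at each temperature, with log2 changes of 0.31 ± 0.09 and 0.28 ± 0.09 in hy5 (edgeR adjusted p = 0.0189 and 0.0478) and of 0.58 ± 0.09 and 0.74 ± 0.09 in phyAB. The hy5 calls were lost without Col-0 replicate 1 or 2 or hy5 replicate 2 at 21 °C, and at 27 °C when any library but Col-0 replicate 1 was left out. PLP4 was at 0.155 to 0.487 CPM in the 6 Col-0 shoots, 1.04 to 1.44 in hy5 and 1.82 to 3.97 in phyAB. NAC080 was at 1.62 to 2.85 CPM in Col-0 shoots, 3.05 to 3.96 in hy5 and 3.41 to 7.14 in phyAB. GLR2.2 was at 0 to 0.130 CPM in Col-0 shoots, 0.160 to 1.08 in hy5 and 0.318 to 0.793 in phyAB. YLS9 was at 0 to 0.2605 CPM, 0.534 to 0.980 CPM and 0.545 to 1.67 CPM, and AT2G41480 at 0.2445 to 0.608 CPM, 1.06 to 1.47 CPM and 0.899 to 1.67 CPM, in Col-0, hy5 and phyAB. GLR2.2, YLS9, AT2G41480 and PLP4 passed the filter through the mutants, so their separation from Col-0 is not read as a result.

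**Figure D5:**
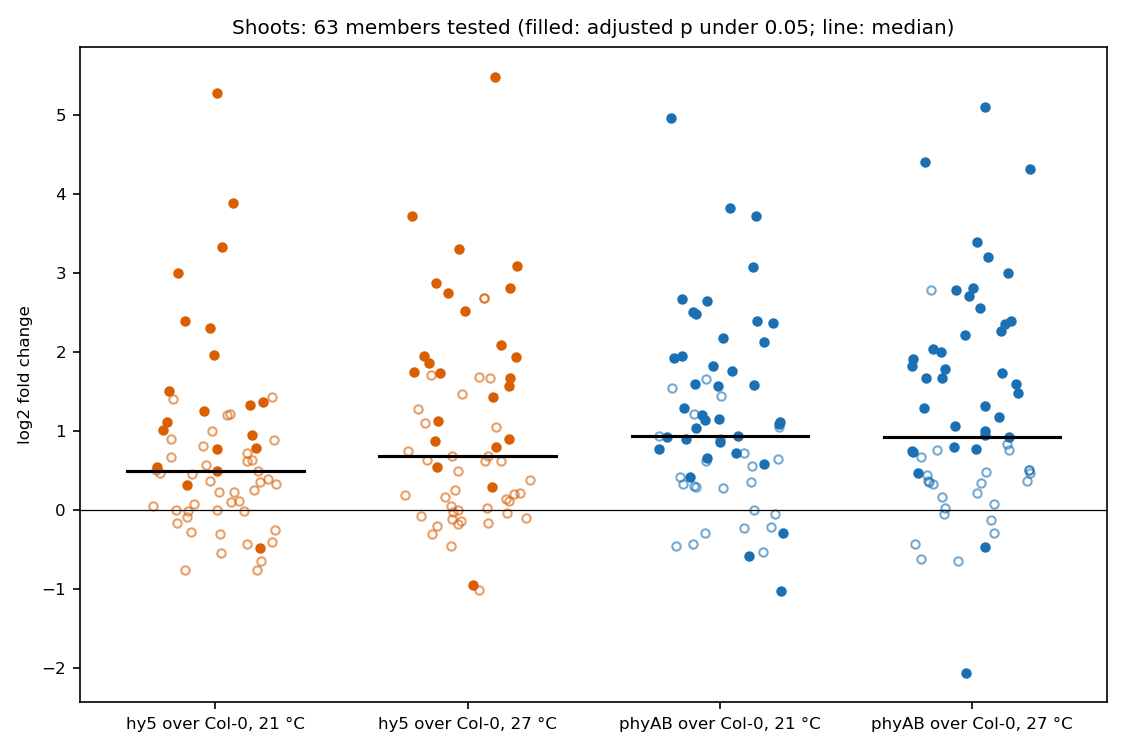
Log2 fold change of each mutant over Col-0 in shoots (vertical axis) for the 63 genes that could be tested, by mutant and temperature. Filled points have an edgeR adjusted p under 0.05 and the line is the median, at 0.50 and 0.68 in hy5 and 0.94 and 0.92 in phyAB, where the tested genes include those that pass the filter through the mutant's own reads. MRD1 is the top point of each column.

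The 2 mutants were also set against each other in shoots. At 21 °C 24 genes were higher in phyAB than in hy5 and 7 lower, where 22.9% and 24.4% of all genes were, and at 27 °C 17 were higher and 14 lower, where 20.9% and 24% were (edgeR, adjusted p under 0.05). HMA2 had 3.64, 3.42 and 3.08 CPM in Col-0 shoots at 21 °C, 4.12, 3.35 and 4.19 CPM in hy5 and 13.9, 16.04 and 19.9 CPM in phyAB. At 27 °C it had 3.31, 2.54 and 3.08 CPM, 2.65, 1.66 and 2.25 CPM, and 12.003, 12.7 and 12.5 CPM. Its phyAB libraries lay apart from all others, by a log2 difference from hy5 of 2.36 ± 0.16 at 27 °C (edgeR adjusted p = 3.62e-09). AT4G39675, an uncharacterised gene, was higher in phyAB than in hy5 by 3.26 ± 0.30 at 21 °C (edgeR adjusted p = 1.77e-07), and AT4G00910 by 1.74 ± 0.23 at 27 °C (edgeR adjusted p = 9.13e-06).

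Among transport genes, TIP2;3 had 0.146, 0.342 and 0.104 CPM in Col-0 shoots at 27 °C, 0.434, 3.0996 and 1.79 CPM in hy5 and 4.097, 7.14 and 3.16 CPM in phyAB, and it passed the filter through the mutants, with 2 to 7 reads in each Col-0 shoot library. UMAMIT36 had 3.51, 0.293 and 0.417 CPM, 1.16, 1.39 and 1.502 CPM and 8.00, 6.77 and 7.30 CPM in the same order, and phyAB exceeded hy5 by 2.31 ± 0.51 (edgeR adjusted p = 0.0013). In both genes the lowest phyAB library at 27 °C stood above every hy5 library. The genes scpl2, MRN1 and AT1G61840, too, had few reads in Col-0 shoots, and only their levels are given. The level of scpl2 was 0.412, 0.5745 and 0.952 CPM in phyAB shoots at 21 °C and 0.0490, 0.118 and 0.0901 CPM in hy5. MRN1 was at 0.4635, 0.239 and 0.159 CPM in phyAB at 21 °C against 0.833, 0.294 and 1.08 CPM in hy5, and AT1G61840 at 0.289, 0.273 and 0.288 CPM in phyAB at 27 °C against 0.675, 0.588 and 0.809 CPM in hy5. The mutants overlapped in MRN1 and not in the other 2. Among genes with reads in Col-0 shoots, phyAB was lower than hy5 in AT1G55240 by 1.86 ± 0.45 at 21 °C and in AT4G20210 by 1.39 ± 0.41 at 27 °C (edgeR adjusted p = 0.00258 and 0.00976).

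AIR1 went the other way, at 3.23 to 7.84 CPM in hy5 shoots against 0.67 to 3.44 CPM in phyAB and 0.244 to 1.69 CPM in Col-0. Its difference of phyAB from hy5 was -2.02 ± 0.39 at 21 °C and -1.63 ± 0.39 at 27 °C (edgeR adjusted p = 0.000372 and 0.00258), so hy5 was above phyAB as it was in roots. Some genes were lower in a mutant's shoots than in Col-0 while higher in its roots. AT1G55390, a C1 domain protein, was at 0.796 to 1.46 CPM in Col-0 shoots, 0.462 to 0.764 in hy5 and 0.182 to 0.669 in phyAB, with no overlap of either mutant with Col-0. It was lower in phyAB by 1.02 ± 0.30 at 21 °C and 2.06 ± 0.33 at 27 °C (edgeR adjusted p = 0.0116 and 7.14e-05), and the call at 21 °C was lost without Col-0 or phyAB replicate 3. The lower level in hy5 at 27 °C, by 0.95 ± 0.30 (edgeR adjusted p = 0.0446), missed the threshold with no filter, by DESeq2 and with any 1 library of the comparison left out. GSTU19 was lower in phyAB shoots at 21 °C by 0.30 ± 0.07 and AT1G70810, a lipid-binding protein, by 0.58 ± 0.16 (edgeR adjusted p = 0.00194 and 0.00832).

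Warmth moved some of the genes in shoots as well. Of the 63 tested, 5 were higher at 27 °C and 16 lower in Col-0, 7 and 11 in hy5, and 5 and 17 in phyAB, where 22.5%, 23.1% and 21.3% of all genes were higher and 23.2%, 22.5% and 22.1% lower (edgeR, adjusted p under 0.05). AT5G65980, AT4G08555, GSTU19, GLP4, AT1G30760 and PLA2A were lower in all 3 genotypes, the first 4 of them also in the roots of all 3, where 13.9% of all genes were lower and 13.8% higher in the shoots of all 3. AT5G65980 had 0.796, 1.40 and 1.82 CPM in Col-0 shoots at 21 °C, then 0.244, 0.0978 and 0.104 CPM at 27 °C, with log2 changes of -3.09 ± 0.47 in Col-0, -2.40 ± 0.33 in hy5, then -1.89 ± 0.29 in phyAB (edgeR adjusted p = 4.14e-05, 1.39e-05 and 4.29e-05). PLA2A, a patatin-like lipase induced in defence, had 2.85, 3.42 and 2.87 CPM in Col-0 shoots at 21 °C, then 0.487, 0.685 and 0.678 CPM at 27 °C, a log2 change of -2.27 ± 0.29 (edgeR adjusted p = 6.03e-06). AT5G14120, of the major facilitator superfamily, was the 1 gene higher at 27 °C in the shoots of all 3 genotypes, as it was in roots, by 1.31 ± 0.10 in Col-0 (edgeR adjusted p = 2.37e-08). AT4G39675 was higher by 1.95 ± 0.37 in Col-0 and 1.52 ± 0.35 in hy5 (edgeR adjusted p = 0.000313 and 0.0016), with 1.41, 1.17 and 1.25 CPM at 27 °C in Col-0.

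The temperature response of the shoots was set against that of Col-0 directly. For hy5 no gene of the 63 passed by edgeR or by DESeq2, with 4 at an unadjusted p under 0.05, and 0.00498% of all genes were higher and none lower. For phyAB 1 was higher and 2 lower, where 1.63% and 1.88% of all genes were. AT5G14120 had 86.3, 74.9 and 102 CPM in Col-0 shoots at 21 °C, then 194, 232 and 221 CPM at 27 °C, against 114.5, 143 and 137 CPM and 173, 174 and 170.5 CPM in phyAB. The phyAB shoots started higher and ended lower, and the difference of the responses was -0.89 ± 0.14 on the log2 scale (edgeR adjusted p = 0.00215).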

How the data were processed

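Gene counts of 36 libraries were used, 18 of roots and 18 of shoots. The libraries were stranded mRNA libraries sequenced from 1 end over 50 bases, per the labels' protocols. The tools FastQC, TopHat2, HTSeq and edgeR and the build TAIR10 are named per the submitters' processing notes. The deposited counts are the authors' whole reads per gene before scaling. No source used here gives the strand setting of the counting, so reads of overlapping or antisense genes cannot be told apart.

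Levels are CPM of reads in genes with no scaling factor, and log2 ratios of mean CPM used a pseudocount of 1. Tests were edgeR 4.0.16 quasi-likelihood tests in R 4.3.3, with TMM factors, the default filter on low counts, 1 fit of 6 groups per tissue and Benjamini-Hochberg adjustment over all genes of a contrast, and 0.05 as the threshold. Log2 changes from these fits carry their standard error. The TMM factors ran from 0.945 to 1.036 in roots and from 0.95 to 1.103 in shoots. Ratios of the unscaled CPM can therefore differ from the fitted log2 changes. The scripts were checked on simulated counts. Alternatives were RLE factors, DESeq2 1.42.0, no filter, a replicate block, each library left out in turn, and other settings of the rule. Of the 2 excluded loci no value is reported here.

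The 79 genes, the pathway lists, the named genes and the roles were chosen with earlier results of these data known. Values are given for the first 20 genes by rank, for a gene in a pathway list and, in tested contrasts, for those among the 3 largest rises and 3 largest falls past the threshold. Other genes were named after their values were seen. Replicates differed by more than counting noise. The labels do not say what a replicate number stands for. In 5 of 12 comparisons all 3 same-number pairs of libraries had deviations from the group means correlated above 0.1, and these are called paired here: warmth in phyAB roots and shoots, and the 3 genotype comparisons of shoots at 27 °C. The p-values and standard errors in the Results come from fits without this pairing. It enters only through the replicate block, as an alternative. Gene names, positions and promoters come from the RefSeq annotation of TAIR10.1, in which 32548 of the 32833 genes and all 79 have an entry.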

Additional observations from a re-analysis of the deposited data

Results flagged for a closer look

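The change of the shoot level between 21 °C and 27 °C differed between phyAB and Col-0 in 3 of the 63 genes tested, by edgeR's test of the difference itself with 3 shoot libraries per group. Of the 63, 1.59% were higher and 3.17% lower, against 1.63% and 1.88% of all 20100 genes, so the count is near that share. LTP5 had a difference of 0.46 ± 0.11 (SE) on the log2 scale (adjusted p = 0.0289), with 284, 287 and 301 CPM at 21 °C and 240.1, 246 and 229 CPM at 27 °C in Col-0, and 313, 332 and 334 CPM and 340.1, 370.3 and 389.5 CPM in phyAB. The level fell in Col-0 (adjusted p = 0.0095, edgeR). In phyAB its rise of 0.20 ± 0.08 missed the threshold (adjusted p = 0.0532, edgeR). The CPM of the temperatures did not overlap in either genotype. The call of a difference between the responses was lost with any 1 of 8 of the 12 libraries compared left out, with adjusted p up to 0.069 (edgeR). AT4G39675 had a difference of -2.0 ± 0.43 (adjusted p = 0.0165, edgeR), with 0.209, 0.207 and 0.564 CPM at 21 °C and 1.41, 1.17 and 1.25 CPM at 27 °C in Col-0, and 3.76, 4.79 and 7.51 CPM and 4.63, 5.05 and 5.52 CPM in phyAB. This call was lost without Col-0 replicate 1 or 2 at 21 °C, at -1.72 and -1.79 (adjusted p = 0.0535 and 0.0538, edgeR). AT5G14120 had a difference of -0.89 ± 0.14 (adjusted p = 0.00215, edgeR), and passed with each of the 12 libraries left out.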

How the results depend on the processing

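Under the alternatives of the rule, 68 and 56 of the 79 genes were chosen again with pseudocounts of 0.25 and 5, 71 and 61 with minimum means of 1 and 10 CPM, 73 with TMM factors, 64 with edgeR's log2 fold changes and 71 to 78 with a library left out. The 1 gene lower in hy5 shoots at 21 °C became 0 with RLE factors, no filter and DESeq2, and 0 to 1 with a replicate left out. At 27 °C the 1 became 0 with no filter, with DESeq2 and with each replicate left out. Genes higher in Col-0 shoots at 27 °C than at 21 °C became 3 by DESeq2. With 1 replicate left out, genes higher in hy5 shoots at 27 °C numbered 12 to 18, those lower in phyAB than in hy5 shoots 3 to 6 at 21 °C and 8 to 12 at 27 °C, and those higher and lower with warmth 3 to 4 and 10 to 15 in Col-0 shoots and 1 to 4 and 10 to 15 in phyAB shoots. The phyAB difference in response ran over 0 to 2 higher and 1 to 2 lower. The lowest counts came without Col-0 27 °C replicates 2 (3 higher with warmth) and 3 (10 lower with warmth), hy5 21 °C replicate 1 and phyAB 21 °C replicate 2 (3 lower in phyAB than in hy5), hy5 27 °C replicate 1 (8), and phyAB 21 °C replicates 2 (1 higher with warmth) and 3 (10 lower). Restricted to the 41 genes with reads in Col-0 shoots, an alternative chosen after seeing the data, the counts higher than Col-0 were 12, 11, 23 and 21, and those higher with warmth 4 in hy5 and 3 in phyAB. The cause of these moves was not tested. Of 70 named values none changed direction, and 13 missed the threshold under at least 1 alternative. In roots this was PXMT1 with warmth in Col-0. In shoots these were AT2G38640 in hy5 at 21 °C, AT1G55390 in hy5 at 27 °C and in phyAB at 21 °C, TIP2;3 and MRN1 in phyAB against hy5 at 21 °C, AT4G37030 with warmth in Col-0, TIP2;3 with warmth in hy5 and phyAB, MRN1 and AT1G55240 with warmth in phyAB, and the differences in response of LTP5 and AT4G39675.

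With the replicate block, no count moved by over 1.5 times. In the 5 comparisons whose libraries paired by number it gave 26 genes higher and 13 lower with warmth in phyAB roots, 6 and 19 in phyAB shoots, and at 27 °C 26 and 1 in hy5 shoots, 36 and 2 in phyAB shoots and 18 and 15 in phyAB against hy5. For the other comparisons the number is a hint from the data and not from the design. Of same-number pairs 21 of 45 in roots and 32 of 45 in shoots correlated above 0.1, against 16 of 90 and 11 of 90 pairs of different number, and 14 of 18 libraries in each tissue correlated best with one of their own number. Counting noise is large for the 49 genes under 1 CPM in Col-0 shoots, and 16 of the 79 could not be tested there.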
